A study of Mus musculus with 22 samples.

Results

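The 9 genes described here are regulators of the trophectoderm, the outer layer of the blastocyst that forms the placenta: Cdx2, Eomes, Gata2, Gata3, Tfap2c, Elf5, Tead4, Hand1 and Ascl2. The rule lists the 9 genes by name, and all 9 were found by Ensembl identifier (GENCODE M21 symbols) among the 55487 genes listed in each of the 2 tables. RNA was sequenced from Dux-/- mouse embryonic stem cells (mESCs) grown in 2iLIF. After 24 hours of recovery, doxycycline at 0.25 ug/mL was given for 12 hours to every group, so the knockout and the drug are common to all libraries. The induced protein was mCherry alone or mCherry joined to DUX (FL, full length) or to a derivative of it: C3+14, C1C3a, C1C3b, C1C3c and C1+14 in 1 table of 14 libraries, and C12345delt14, deltC12345+14 and deltC12345delt14, beside the same FL libraries, in another of 8. Each group had 2 replicates, and 20 libraries of 10 groups were analysed out of 22 samples in 11 groups (C3delt14 was not analysed here). The labels do not spell out C1 to C5, 14 or the letters a, b and c, and they do not say whether a line was 1 clone or whether replicates were separate cultures. The p-values therefore measure the spread between these samples, which may be technical.

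DUX, a transcription factor with a pair of homeodomains, activates the genes of the earliest cleavage embryo, well before the trophectoderm is set aside. In the later embryo, TEAD4 with its coactivators YAP1 and WWTR1 acts in outer cells, where Hippo signalling is low, and Notch signalling acts beside it on Cdx2. CDX2, GATA3, GATA2 and TFAP2C specify the lineage and repress the pluripotency programme. EOMES and ELF5 with CDX2 and TFAP2C keep trophoblast stem cells self-renewing, while ASCL2 and HAND1 act in the later spongiotrophoblast and giant cells. Embryonic stem cells stand on the other side of that choice and hold most of these genes at a low level.

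Values are normalised reads, that is, reads per gene multiplied by 1 factor per library that the authors set. Library totals ran from 21059953 to 40448890 reads, and 1 read is worth between 0.620 and 1.81 normalised reads. A library with 0 reads of a gene is compatible with up to 3 reads, and floors cover counting error only, since PCR copies of a molecule cannot be told from separate molecules. All 8 embryonic stem cell markers (Pou5f1, Sox2, Nanog, Zfp42, Esrrb, Klf4, Sall4 and Dppa5a) had reads in every library. Their summed level was 85608.0 and 87758.8 normalised reads in mCherry, above both libraries of every construct of the same table but C1C3a, and 5 of the 8 were called lower in FL, C1C3b and C1C3c each. In C3+14 4 were lower, in C1C3a 2 were lower and 1 higher, and in C1+14 2 were lower. The summed levels of 7 fibroblast and 5 neural markers were 150 to 166 and 852 to 866 in mCherry, and 120.6 to 361.5 and 600.5 to 1006.3 in the constructs of that table. Limma called 4 of the 7 fibroblast markers higher and 2 lower in C1C3b (median 3.73) and in C3+14 (median 1.62), 2 higher and 1 lower in C1C3a and C1C3c, and 1 higher and 1 lower in FL and C1+14. Of the 5 neural markers it called 2 higher in C3+14, C1C3a, C1C3b and C1C3c each, 1 higher in C1+14 and 1 lower in FL. In the deletion table the fibroblast sum was 183 to 281 in FL and C12345delt14 and 496 to 741 in deltC12345+14 and deltC12345delt14. For the same comparisons, the shares of all genes called are given below beside those of the 9 genes. The part of any marker list in the results was not tested. The share of reads in processed pseudogenes was lowest in the mCherry libraries (4.06% and 4.13%), and it separated the replicates of deltC12345+14 (6.93% and 4.53%) and of deltC12345delt14 (4.68% and 7.11%). An array of DUX-responsive genes on chromosome 10 took 19.2% and 12.3% of the FL reads. It took 11.2% and 13.6% in C1C3a, 9.42% and 7.34% in C12345delt14, and at most 0.116% in any library of the other groups. The part of these library differences in the results was not tested. Between 0% and 2.22% of the 50-base stretches of the 9 genes occur elsewhere in the transcriptome.

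The stretch before the start site of a gene is where factors such as TEAD4, TFAP2C and the GATA proteins could bind, so 4 of these windows are shown for genes that moved apart in the data: Cdx2 and Gata2, which were mostly lower than in mCherry, Gata3, which was called lower in FL and had its highest level in C1C3b, and Elf5, which was mostly higher. Each window holds the 250 bases before a start site, from RefSeq on GRCm38.p6, and is written 5′ to 3′ on the gene's strand. Capitals mark a match to GCCNNNGGC (AP-2, the TFAP2C family) or GATAA (GATA) on either strand. Gata2 and Elf5 have 2 windows each, of which 1 is shown. The other Gata2 window holds 1 AP-2 match and 1 match to CATTCC (TEAD), and the other Elf5 window holds 1 match to CATTCC. The Gata3 and Elf5 windows lie inside the genes as GENCODE draws them, before start sites further in, and the 3′ end of the Cdx2 window lies within its GENCODE exon.
Cdx2, chr5:147307250-147307499, minus strand: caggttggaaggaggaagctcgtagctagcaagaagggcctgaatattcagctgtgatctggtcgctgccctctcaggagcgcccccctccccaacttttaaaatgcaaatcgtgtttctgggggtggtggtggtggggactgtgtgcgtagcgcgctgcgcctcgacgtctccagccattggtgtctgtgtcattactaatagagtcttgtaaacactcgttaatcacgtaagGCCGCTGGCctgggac
Gata2, chr6:88193641-88193890, plus strand: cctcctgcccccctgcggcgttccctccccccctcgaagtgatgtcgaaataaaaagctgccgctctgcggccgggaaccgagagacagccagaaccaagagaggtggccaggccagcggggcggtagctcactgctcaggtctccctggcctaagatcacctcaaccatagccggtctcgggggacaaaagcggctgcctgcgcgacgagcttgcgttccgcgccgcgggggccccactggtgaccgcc
Gata3, chr2:9878601-9878850, minus strand: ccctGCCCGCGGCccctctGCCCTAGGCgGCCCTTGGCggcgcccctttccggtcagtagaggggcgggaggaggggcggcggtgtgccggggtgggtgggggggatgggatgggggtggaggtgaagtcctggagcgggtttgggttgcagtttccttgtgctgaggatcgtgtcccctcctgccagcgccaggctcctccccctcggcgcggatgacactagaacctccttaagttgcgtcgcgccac
Elf5, chr2:103423818-103424067, plus strand: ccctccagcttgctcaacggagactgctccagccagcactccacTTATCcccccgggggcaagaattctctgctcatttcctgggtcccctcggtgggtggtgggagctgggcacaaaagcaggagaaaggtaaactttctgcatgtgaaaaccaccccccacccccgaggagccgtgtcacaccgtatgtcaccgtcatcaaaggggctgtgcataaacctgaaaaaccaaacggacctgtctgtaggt

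Windows were found for 6 of the 9 genes, 8 windows in all. The AP-2 letters occur in 3 of the 8 and in 13.7% of the 32851 windows of all genes, with 3 matches in the Gata3 window alone. CATTCC, the TEAD motif, occurs in 2 of the 8 and in 12.6% of all, and GATAA in 1 of the 8 and in 22.6% of all. The 8 windows have between 46.4% and 74.0% G and C, against a median of 52.4% over all windows. A match only describes the letters in a window and is not evidence of binding.

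In cells with mCherry alone the 9 genes spanned a wide range, which is compared here per kilobase of exon. Tfap2c was highest with 424 normalised reads per kilobase, followed by Tead4 with 229, Ascl2 with 61.3, Gata2 with 59.0 and Eomes with 32.1. Gata3 had 17.8, Cdx2 14.2, Hand1 0.975 and Elf5 0.225. Tfap2c and Tead4 were thus plainly expressed in these stem cells with mCherry and no DUX protein induced, and Hand1 and Elf5 were at or near the limit of detection.

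FL and the 5 derivatives of the same table were each set against mCherry alone, to ask what each protein did to these genes. Tfap2c was lower in all 6, Gata2 and Tead4 in 5 and Cdx2 in 4, while Elf5 was higher in 4 and Eomes in 2. Gata3 and Ascl2 were each lower in 1. A gene was called when limma, with Benjamini-Hochberg adjustment over all 21584 genes tested, gave an adjusted p under 0.05 and at least a 2-fold difference. Of the 9 genes 8 had enough reads to be tested, and Hand1 did not. Cdx2 reached the 10 normalised reads required only in both mCherry libraries and C1C3c replicate 2, and Elf5 only in libraries of constructs. The direction of their calls against mCherry is therefore not independent of how they passed the filter. In FL 5 of the 8 were called, all lower, where 44.2% of all genes were called (24.5% higher and 19.6% lower). In C3+14 6 were called, 2 higher and 4 lower, against 47.3% of all genes (29.6% higher and 17.7% lower). In C1C3a 4 were called, all lower, against 46.4% (27.4% higher and 19.0% lower). In C1C3b 6 were called, 2 higher and 4 lower, against 44.7% (27.6% higher and 17.1% lower). C1C3c had 4 calls, 1 higher and 3 lower, against 28.8% (18.3% higher and 10.5% lower). C1+14 had 3, 1 higher and 2 lower, against 18.3% (12.4% higher and 5.95% lower). The median log2 difference of the 8 genes lay at -2.25 for FL, -1.19 for C3+14, -1.29 for C1C3a and -1.37 for C1C3b, and at -0.58 for C1C3c and -1.20 for C1+14, and the median of all tested genes lay between 0 and 0.23. All 6 comparisons use the same mCherry libraries, so their directions are not independent of each other. In bulk RNA, fewer expressing cells and less RNA per cell cannot be told apart.

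**Figure D1:**
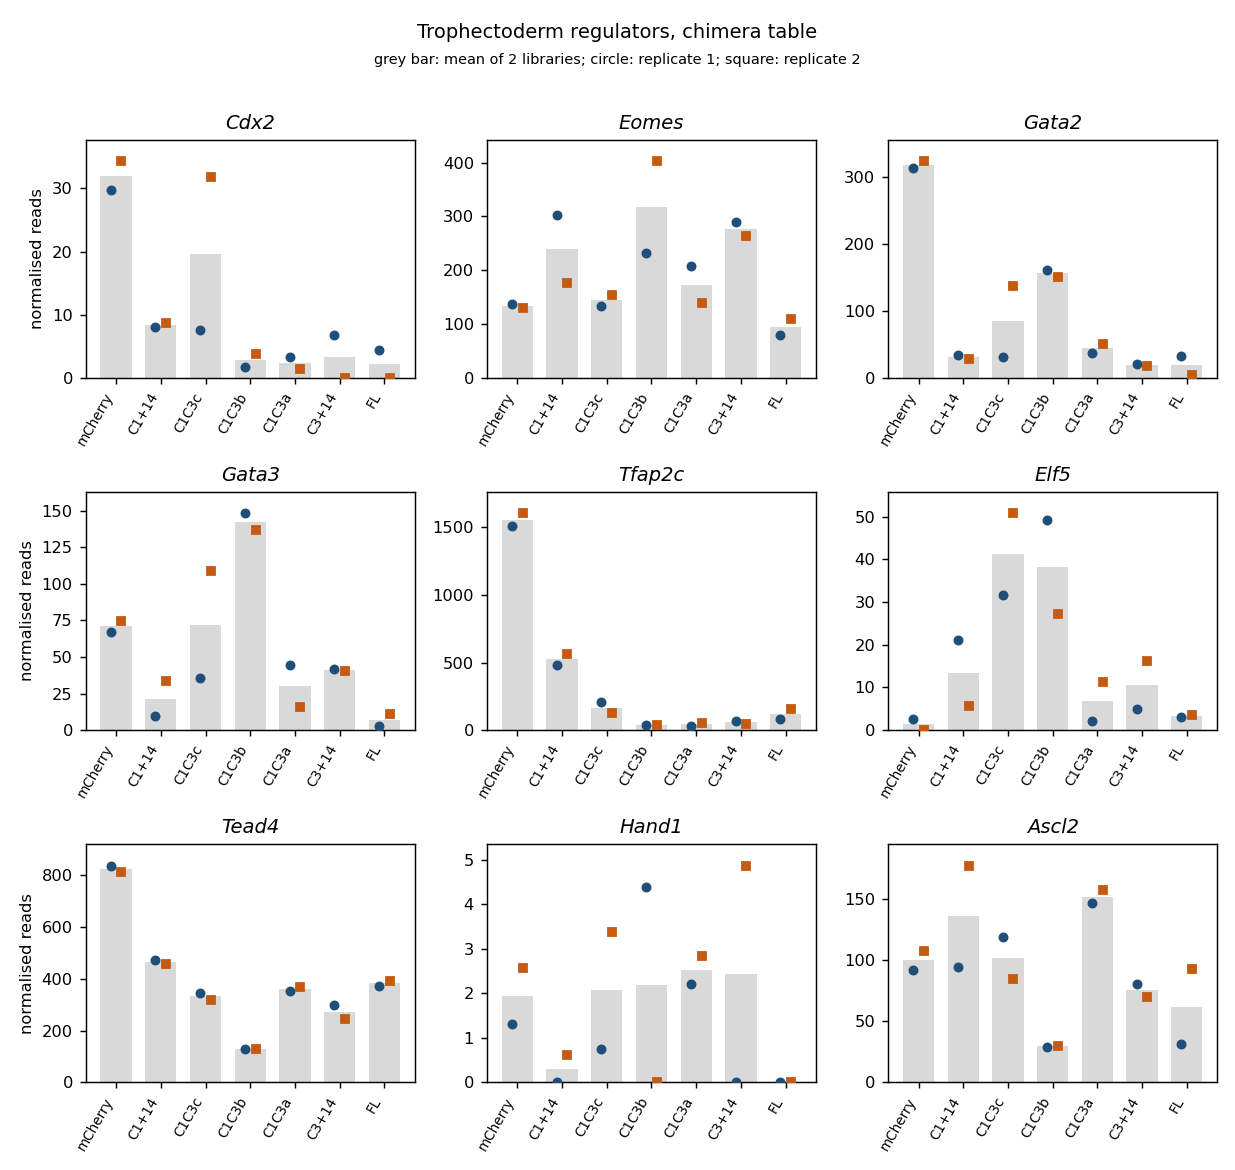
Normalised reads of each gene (vertical axis, linear, its own scale per panel) in the 7 groups of the chimera table (horizontal axis), with circles and squares for replicates 1 and 2 and grey bars for their mean. The mCherry libraries are highest for Tfap2c, Tead4 and Gata2, C1C3b is highest for Gata3 and Eomes, and Elf5 is near 0 in mCherry and FL.

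Tead4 (ENSMUSG00000030353, chromosome 6, 128224288 to 128300823, minus strand, GRCm38) codes for the DNA-binding factor at the head of the trophectoderm programme. It had 835 and 813 normalised reads in mCherry, 473 and 458 in C1+14, 373 and 392 in FL, and 351 and 367 in C1C3a. C1C3c had 344 and 319, C3+14 had 297 and 245, and C1C3b had 127 and 130. No neighbours in this order of the 7 groups overlap, and Tead4 has the smallest SE of the 8 tested genes. Tead4 fell by 1.11 on the log2 scale in FL (SE 0.15, limma adjusted p 3.35e-05), by 1.20 in C1C3a, 1.31 in C1C3c and 1.61 in C3+14, and by 2.67 in C1C3b (SE 0.15, limma adjusted p 1.41e-08). In C1+14 its log2 difference of -0.82 (SE 0.15, limma adjusted p 0.00139) was short of 2-fold and was not called. FL and C1C3a are neighbours in this order, and their log2 difference of 0.09 (SE 0.15) did not pass the test.

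Cdx2 (ENSMUSG00000029646, chromosome 5, 147300805 to 147307270, minus strand) codes for the homeodomain factor that defines the trophectoderm. It was scarce throughout, with 45 and 40 reads in the mCherry libraries and 11 and 14 in those of C1+14. FL had 3 and 0 reads, C3+14 had 4 and 0, C1C3a had 3 and 1, and C1C3b had 2 and 4. The C1C3c libraries disagreed, with 10 and 47 reads, the second reaching the level of mCherry. The groups FL, C3+14, C1C3a and C1C3b all lie below both mCherry libraries, and Cdx2 was called lower in each of them, with log2 differences from -3.82 (SE 0.99, limma adjusted p 0.00441, in FL) to -3.19 (adjusted p 0.0131, in C1C3b). FL and C1C3a had no more than 3 reads in either library. With each of their libraries set to 3 reads, they would be 8.01-fold and 8.46-fold lower than mCherry. That is a guide and not a bound, since 3 counted reads are compatible with a higher level. C1+14 did not overlap with mCherry, but its log2 difference of -1.82 (SE 0.99, limma adjusted p 0.186) was not called. The calls rest on few reads: limma gave an adjusted p of 0.0587 without FL replicate 2, 0.102 without C3+14 replicate 2 and 0.0664 without C1C3a replicate 2. In C1C3b it gave 0.0819 without replicate 1 and 0.0630 without mCherry replicate 2.

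Gata3 (ENSMUSG00000015619, chromosome 2, 9857078 to 9890034, minus strand) codes for a GATA factor that acts with Cdx2 downstream of TEAD4. It had 67.3 and 74.6 normalised reads in mCherry and 2.95 and 10.7 in FL, a fall of 3.40 in log2 (SE 0.70, limma adjusted p 8.8e-04). C1C3b was on the other side of mCherry with 148 and 137, at a log2 difference of 1.00 (SE 0.70, limma adjusted p 0.233) that was not called. C3+14 had 41.9 and 40.5, C1C3a 44.3 and 15.6, C1+14 9.502 and 33.5, and C1C3c 35.4 and 109. Only C1C3c overlaps with mCherry, and the replicates of C1C3a, C1+14 and C1C3c spread far more than those of mCherry, C3+14 and C1C3b. The gene's exons overlap those of Gm13256 and 9230102O04Rik over 5.83% of their bases, and how reads there were counted is not given in the sources used here. The log2 differences of C1+14 (-1.92, limma adjusted p 0.0515) and C1C3a (-1.39, adjusted p 0.0973) were not called, but they were after quantile normalisation (-1.99 and -2.01) and without the C1+14 replicate 2 (-2.77) or C1C3a replicate 1 (-2.12) library.

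Gata2 (ENSMUSG00000015053, chromosome 6, 88193891 to 88207032, plus strand) codes for the other GATA factor of trophoblast cells. It had 313 and 323 normalised reads in mCherry, 160 and 151 in C1C3b, 31.7 and 137 in C1C3c, and 37.6 and 51.0 in C1C3a. C1+14 had 34.4 and 28.5, C3+14 20.1 and 17.8, and FL 32.4 and 4.76. No group overlaps with mCherry. Gata2 fell by 4.52 on the log2 scale in FL (SE 0.71, limma adjusted p 1.02e-04), by 4.0 in C3+14, 3.31 in C1+14 and 2.83 in C1C3a. C1C3c was called at -2.25 (limma adjusted p 0.0194), but the 2 libraries differ and the value without C1C3c replicate 1 was -1.21 (adjusted p 0.207), and without mCherry replicate 1 or 2 the adjusted p was 0.0768 and 0.0824. In C1C3b the log2 difference of -1.03 (SE 0.71, limma adjusted p 0.226) was not called. A fit of only C1C3b and mCherry gave an adjusted p of 0.00253 for the same difference, and one of only C1C3c and mCherry gave 0.121 for that of C1C3c, which was then not called.

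Tfap2c (ENSMUSG00000028640, chromosome 2, 172549593 to 172558622, plus strand) codes for an AP-2 factor that trophoblast cells share with germ cells and early embryos. It had 1514 and 1603 normalised reads in mCherry and 483 and 562 in C1+14, and then fell steeply: 207 and 126 in C1C3c, 84.0 and 158 in FL, 70.4 and 45.3 in C3+14, 33.2 and 53.8 in C1C3a, and 35.1 and 38.5 in C1C3b. No construct overlaps with mCherry, and C1+14 stands alone between mCherry and the rest. The log2 differences from mCherry were -1.58 in C1+14 (SE 0.35, limma adjusted p 0.00435), -3.26 in C1C3c, -3.74 in FL, -4.76 in C3+14, -5.17 in C1C3a and -5.37 in C1C3b (limma adjusted p 4.97e-08). These 6 calls held under each alternative that was run. FL kept more Tfap2c than C1C3b by 1.62 (SE 0.35, limma adjusted p 0.00131, with 43.0% of genes called in that comparison) and more than C1C3a by 1.43 (adjusted p 0.00961, 15.6% called), and less than C1+14 (-2.17, adjusted p 1.61e-04, 39.9% called).

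Eomes (ENSMUSG00000032446, chromosome 9, 118478212 to 118486132, plus strand) codes for a T-box factor of trophoblast stem cells, which mesoderm and endoderm also use. It had 137 and 130 normalised reads in mCherry, 290 and 264 in C3+14, and 232 and 403 in C1C3b, and these 2 constructs were called higher, by 1.05 (SE 0.32, limma adjusted p 0.0110) and 1.19 (adjusted p 0.00551) on the log2 scale. C1+14 had 303 and 176, C1C3a 207 and 139, C1C3c 134 and 154, and FL 79.6 and 110. FL is the single group that lies wholly below mCherry, at -0.51 (SE 0.32, limma adjusted p 0.180), which was not called. With reads scaled to the library's total (RPM) it was -1.53 (limma adjusted p 0.00245), a call, while the median gene was at -0.86. The rise in C3+14 depends on the scaling: it was 0.84 after quantile normalisation and 0.26 in RPM (limma adjusted p 0.547), and neither was called. Without C3+14 replicate 1 or mCherry replicate 2 its adjusted p was 0.0623 and 0.0543, and the rise in C1C3b without replicate 2 was 0.79 (limma adjusted p 0.0836). In normalised reads, the summed level of 6 primitive endoderm markers (Gata4, Gata6, Sox17, Sox7, Pdgfra and Foxa2) was above mCherry in every construct, whether or not Eomes was called. It was 601 to 628 normalised reads in C3+14 and 603 to 641 in C1C3b against 68.6 to 78.9 in mCherry. Limma called 4 and 5 of the 6 higher there, against 29.6% and 27.6% of all genes. Where Eomes was not called, the sum was 364 to 648 in C1C3a, 245 to 256 in C1C3c, 186 to 215 in C1+14 and 92.8 to 121 in FL. For FL this depends on the scaling: in RPM the sum was 1.96 and 3.25 in FL, below the 3.33 and 3.84 of mCherry. The other constructs stayed above mCherry in RPM. In FL limma called 1 of the 6 higher and 1 lower (median -0.48), against 24.5% and 19.6% of all genes. All 6 had reads in both mCherry libraries, and Sox7 was at 0 in 1 library each of C3+14 and C1C3a. In FL 2 of the 6 had 0 reads in replicate 1 and 1 in replicate 2. The summed level of 6 mesoderm markers was 334 to 396 normalised reads in C1C3b, 134.6 to 135.5 in mCherry and 70.4 to 85.8 in C3+14. Mesp1 and Foxf1 had 0 reads in at least 1 library of both C1C3b and mCherry. Of the 3 mesoderm markers tested, limma called 1 higher and 1 lower in C1C3b (median -1.41) and 0 in C3+14 (median -1.74). The part of either marker list in the Eomes values was not tested.

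Elf5 (ENSMUSG00000027186, chromosome 2, 103411688 to 103450989, plus strand) codes for an ETS factor that marks committed trophoblast and is silenced by promoter methylation in embryonic stem cells. It had 4 and 0 reads in mCherry and 2 and 3 in FL. C1C3b had 56 and 29 reads and C1C3c 42 and 75. In normalised reads these were 49.1 and 27.2, and 31.7 and 50.7, against 2.64 and 0 in mCherry, and both constructs lie above all libraries of the other 5 groups on that scale. The log2 differences from mCherry were 4.30 (SE 0.85, limma adjusted p 6.88e-04) and 4.43 (adjusted p 9.62e-04), and each was called under each alternative that was run. C3+14 had 3 and 10 reads and C1+14 had 29 and 9, and both were called higher, at 2.42 (limma adjusted p 0.0234) and 2.66 (adjusted p 0.0291). Those 2 calls rest on a handful of reads: with a pseudocount of 8 the log2 differences were 0.94 and 1.11 (limma adjusted p 0.0745 and 0.0698), without mCherry replicate 2 the adjusted p was 0.222 and 0.254, without C3+14 replicate 2 it was 0.190 and without C1+14 replicate 1 it was 0.222. After quantile normalisation the log2 differences were 0.79 and 2.07 (limma adjusted p 0.489 and 0.128), and in RPM the adjusted p of C3+14 was 0.0630. C1C3a, with 2 and 8 reads, overlaps with mCherry and was not called.

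Ascl2 (ENSMUSG00000009248, chromosome 7, 142966829 to 142969264, minus strand) codes for an imprinted basic helix-loop-helix factor of the spongiotrophoblast. It had 91.7 and 107 normalised reads in mCherry and 28.9 and 30.0 in C1C3b, a fall of 1.72 in log2 (SE 0.44, limma adjusted p 0.00412). The other groups scattered around mCherry: C1C3a had 146 and 157, C1+14 94.3 and 177, C1C3c 118 and 84.5, C3+14 80.4 and 69.6, and FL 30.9 and 92.8. None of these was called. In FL the value of -0.87 (limma adjusted p 0.101) became -1.21 after quantile normalisation, -1.88 in RPM and -1.65 without FL replicate 2, each of which was called. Hand1 (ENSMUSG00000037335, chromosome 11, 57828705 to 57832818, minus strand), a helix-loop-helix factor of giant cells, had between 0 and 5 reads in every library of both tables. It was at or under the floor of 3 reads in both libraries of FL, C3+14, C1C3a, C1+14 and mCherry, so a difference was not detectable at this depth.

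**Figure D2:**
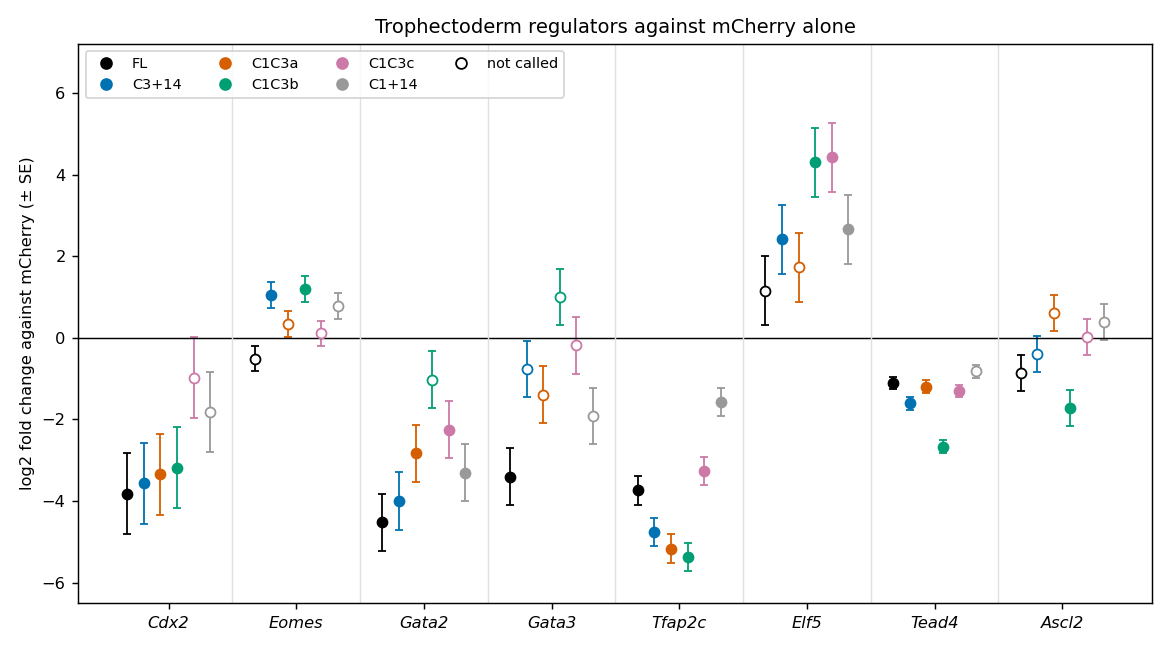
Log2 fold change against mCherry (vertical axis, with SE bars from limma) of the 8 tested genes (horizontal axis) in the 6 constructs, with filled points for calls. Tfap2c is filled below 0 for each construct, Tead4, Gata2 and Cdx2 for most, and Elf5 is the gene with filled points furthest above 0.

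The size of a change, and the sign of some that were not called, moved with how libraries were put on 1 scale: the authors' size factors, quantile normalisation or RPM. In RPM the median gene was lower than in mCherry by 0.86 on the log2 scale in FL, 0.52 in C3+14 and 0.73 in C1C3a, and it was 0.06 higher in C1C3b, 0.20 in C1C3c and 0.16 in C1+14. The percent of all calls that were higher in FL than in mCherry went from 55.5% to 41.2% after quantile normalisation and 28.0% in RPM. In C3+14 it went from 62.6% to 42.4% and 37.3%, in C1C3a from 59.0% to 41.0% and 32.9%, and in C1C3b from 61.7% to 47.8% after quantile normalisation. In C1+14 it went from 67.5% to 80.4% in RPM. No called value of the 9 genes changed sign under either scaling. In RPM Tfap2c (-4.77), Gata2 (-5.49) and Tead4 (-2.14) lay further below 0 in FL than the median gene, and Elf5 in C1C3b (4.44) and C1C3c (4.85) lay further above. Values that were not called did flip: Elf5 in FL was -0.09 after quantile normalisation, and Eomes and Ascl2 in C1C3a were -0.57 and -0.30 in RPM.

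**Figure D3:**
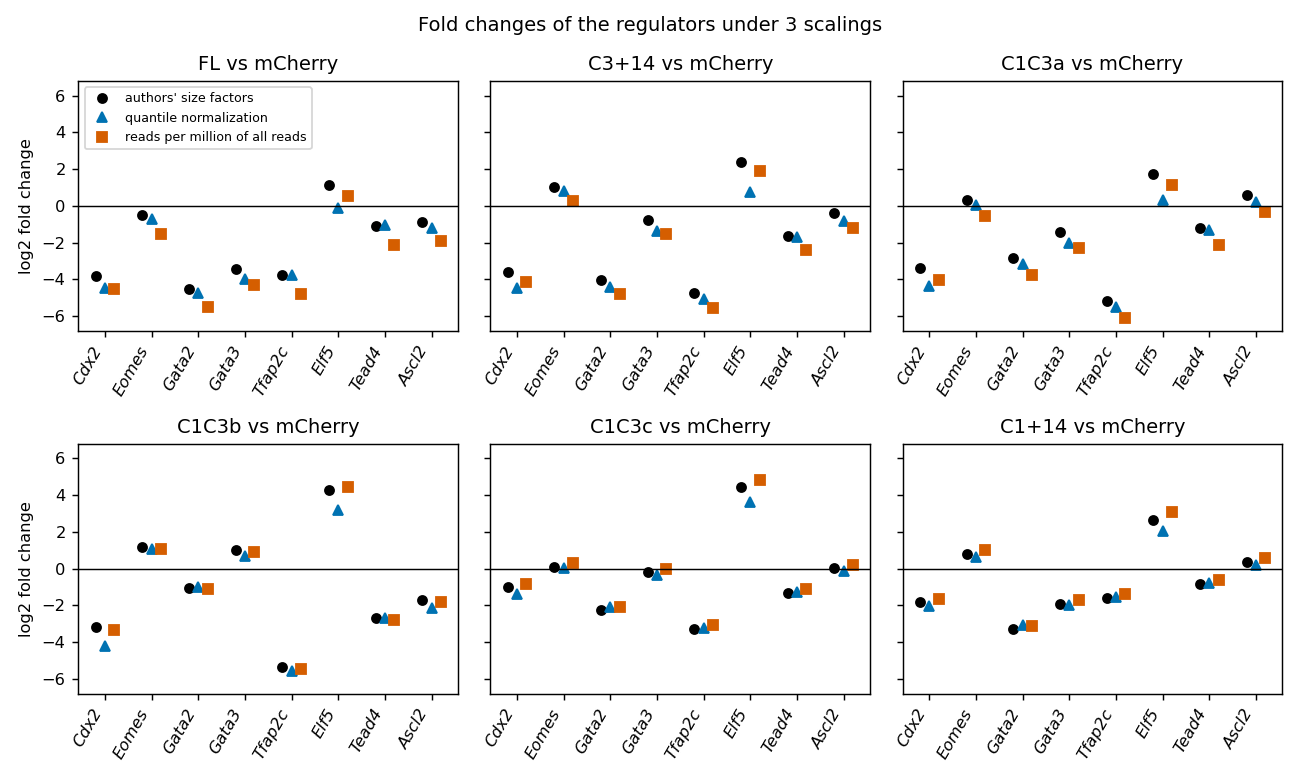
Log2 fold change against mCherry (vertical axis) of the 8 tested genes (horizontal axis) under the authors' size factors (circles), quantile normalisation (triangles) and RPM (squares), 1 panel per construct. The squares lie below the circles in FL, C3+14 and C1C3a and close to them in C1C3b, C1C3c and C1+14, and Tfap2c and Tead4 are below 0 in each panel.

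A list of 20 Hippo and Notch genes, regulators as well as targets of these pathways, was read next, with 19 tested. With FL 11 were lower and 0 higher (median log2 difference -1.18). With C3+14 7 were lower and 2 higher (-0.55), and with C1C3a 7 and 1 (-0.26). C1C3b had 3 lower and 4 higher (0.20), C1C3c 3 and 3 (0.11), and C1+14 2 and 2 (-0.04). Of all genes, 19.6% were lower and 24.5% higher in FL, 17.7% and 29.6% in C3+14, and 19.0% and 27.4% in C1C3a. For C1C3b these shares were 17.1% and 27.6%, for C1C3c 10.5% and 18.3%, and for C1+14 5.95% and 12.4%. In C1C3b, where Tead4 was lowest, its coactivator Wwtr1 rose by 1.39 in log2 (SE 0.12, limma adjusted p 9.16e-07), and in C1C3c by 1.11. Yap1, the other coactivator, had 2572 ± 14.2 normalised reads in mCherry, 1905 ± 33.0 in FL and 4431 ± 84.0 in C1C3b (SD, n = 2). None of its 6 differences reached 2-fold (-0.43 to 0.78), though by limma the adjusted p was under the threshold in 4. Hes1, a Notch target, fell in all 6, from 994 ± 2.54 in mCherry to 66.5 ± 44.0 in FL and 49.99 ± 4.97 in C1C3b (SD, n = 2). Notch1, the receptor, was lower in all but C1+14, and Rbpj, its nuclear partner, in all but C3+14 and C1+14.

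Among regulators of Hippo output, Amot, an angiomotin that holds YAP1 in the cytoplasm, rose in C3+14, C1C3b, C1C3c and C1+14, most in C1C3b (22.7 ± 9.004 to 869 ± 111 normalised reads, SD, n = 2; log2 difference 5.25, SE 0.45, limma adjusted p 6.21e-07). Ccn1, a YAP1 and TEAD target, rose most with C1C3b (2.73) and C3+14 (2.67), then C1C3a (1.92) and C1C3c (1.31), and fell with FL (-1.90). Lats2, a kinase of the pathway, was lower in FL (-3.99), C3+14 (-2.13) and C1C3a (-1.88). Amotl2, another angiomotin, was lower in FL (-3.07) and C3+14 (-1.02), and Amotl1 in FL (-1.97), C3+14 (-2.41) and C1C3a (-2.58). Vgll4, which competes with YAP1 for TEAD factors, was lower in FL (-1.10) and higher in C1+14 (1.06), and Ccn2, a target like Ccn1, was lower in both (-1.51 and -1.31). The exons of Lats2 overlap those of Gm49361 on the same strand over 42.4% of their bases. Those of Ccn2 overlap Gm15270 on the other strand over 23.2%. How reads in these overlaps were counted is not given in the sources used here. Tead4 itself was called lower both in FL, where Ccn1 was lower, and in the 4 constructs where Ccn1 was higher. The relation of Ccn1 to Tead4 was not tested.

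**Figure D4:**
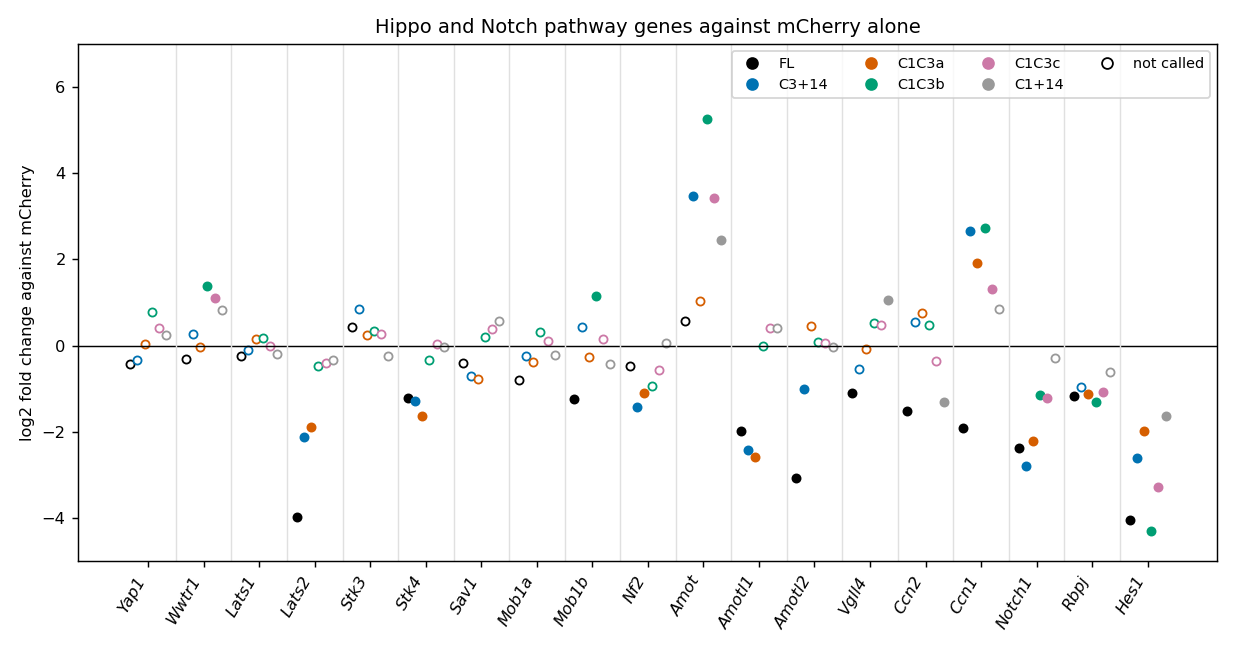
Log2 fold change against mCherry (vertical axis) of the 19 tested Hippo and Notch genes (horizontal axis) in the 6 constructs, with filled points for calls. Hes1 is filled below 0 for each construct, and Amot is filled above 0 for 4 of the 6.

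Downstream of the regulators, a list of 32 trophoblast genes was read in the same way, with 27 tested. FL had 10 lower and 1 higher (median -0.74), where 19.6% of all genes were lower and 24.5% higher. C3+14 had 5 and 3 (-0.19), against 17.7% and 29.6%, and C1C3a had 9 and 2 (-0.70), against 19% and 27.4%. C1C3b had 8 lower and 3 higher (-0.29), against 17.1% and 27.6%. For C1C3c the counts were 8 and 1 (-0.63), beside 10.5% and 18.3% of all genes. C1+14 had 4 and 1 (-0.07), with all genes at 5.95% and 12.4%. Plet1, a surface protein of trophoblast progenitors, rose in C3+14, C1C3a, C1C3b, C1C3c and C1+14, from 36.5 ± 0.651 normalised reads in mCherry to between 104 ± 3.73 in C1C3b and 263 ± 28.2 in C1C3a (SD, n = 2). The keratin gene Krt8 rose by 1.06 in C3+14 and 1.33 in C1C3a, and the homeobox gene Rhox6 by 1.26 in FL and 1.23 in C1C3b. Aqp3, a water channel, went the other way, from 3432 ± 60.4 normalised reads in mCherry to 206 ± 0.913 in C1C3b (SD, n = 2), and was lower in the other 5 constructs as well. Bmp4 was lower in FL (-4.44), C3+14 (-2.17), C1C3a (-3.42) and C1C3c (-1.54), and Id2 in FL (-3.45), C3+14 (-1.85) and C1C3a (-1.41). Ets2 was lower in all but C1+14 (-1.99 to -1.26), and Sox21 in FL alone passed the test (-3.28). Cdh3 was lower in C1C3b (-2.78) and C1C3c (-1.74), Krt19 in C1C3a (-1.57), C1C3b (-2.44) and C1C3c (-1.56), and Krt18 (-2.12, -2.28 and -1.74) and Peg10 (-1.18, -1.69 and -1.20) in C1C3b, C1C3c and C1+14. Several of these genes are not particular to trophoblast: Id2, Ets2 and Bmp4 are also expressed in embryonic stem cells.

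Paralogs of the 9 genes were checked for a shared direction, with 15 of 19 tested. FL had 2 lower and 0 higher, where 19.6% of all genes were lower and 24.5% higher. C3+14 and C1C3a had 5 and 1 each, C1C3b 3 and 3, and C1C3c and C1+14 1 lower and 0 higher each. The shares of all genes for the other constructs are those given beside the trophoblast genes. Tead2 followed Tead4 in C3+14 (-1.55), C1C3a (-1.24), C1C3b (-2.03) and C1C3c (-1.89), and Tead1 was lower in C3+14 (-1.14) and C1C3a (-1.43, limma adjusted p 4.69e-07). Cdx1 was lower in C3+14 (-3.78), C1C3a (-2.498) and C1C3b (-2.96), where Cdx2 was lower too, but it was not called in FL (-1.06, limma adjusted p 0.129). Elf3 was lower in FL (-2.80), C3+14 (-1.48), C1C3a (-1.72) and C1C3b (-1.25), and Elf5 was called higher in C3+14 and C1C3b. Gata6 was higher in C3+14 (1.89), C1C3a (1.59) and C1C3b (2.34) and Gata4 in C1C3b (2.95), both primitive endoderm factors.

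The chimeras C1C3a, C1C3b and C1C3c were next set against C1+14 rather than mCherry, since their names share C1. Against C1+14, 5 of the 8 tested genes were called in C1C3b, 2 higher and 3 lower, where 28.9% of all genes were called (17.9% higher and 11% lower). Gata3 rose by 2.91 in log2 (SE 0.70, limma adjusted p 0.0042) and Gata2 by 2.28 (adjusted p 0.0183), while Tfap2c fell by 3.79 (adjusted p 3.21e-06), Ascl2 by 2.09 (adjusted p 0.00179) and Tead4 by 1.84 (adjusted p 1.17e-06). The Gata3 call ended in a fit of these groups alone (adjusted p 0.0537) and without C1+14 replicate 1 (0.0504), and the Gata2 call ended without C1C3b replicate 1 or 2 or C1+14 replicate 2 (0.0796, 0.0701 and 0.0827). In C1C3a 1 gene was called, Tfap2c at -3.59 (limma adjusted p 1.68e-06), against 40.8% of all genes (23.4% higher and 17.3% lower). In C1C3c Tfap2c alone was called, at -1.68 (limma adjusted p 0.00748), against 7.83% of all genes (5.37% higher and 2.46% lower). That call was lost without C1C3c replicate 2 (adjusted p 0.0957), without C1+14 replicate 2 (0.0634) and in a fit of only C1C3c and C1+14 (0.187), which called 0 of all genes. The percent of all calls that were higher went from 57.5% to 39.1% after quantile normalisation and 21.3% in RPM for C1C3a against C1+14, and from 61.9% to 47.3% and 46.0% for C1C3b.

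The 3 chimeras also differed from each other. The pairs in this paragraph were not among the 12 planned comparisons, and the alternatives were not run on them. Between C1C3a and C1C3b, where 35.6% of all genes were called, Gata2 (-1.81), Gata3 (-2.39) and Elf5 (-2.58) were lower in C1C3a, and Tead4 (1.47) and Ascl2 (2.32) were higher, with limma adjusted p between 4.9e-06 and 0.0447. Between C1C3b and C1C3c, where 11.2% were called, Eomes (1.08) was higher in C1C3b, and Tfap2c (-2.11), Tead4 (-1.36) and Ascl2 (-1.73) were lower. C1C3a and C1C3c differed in Tfap2c (-1.91, limma adjusted p 4.48e-04) and Elf5 (-2.71, adjusted p 0.0150), both lower in C1C3a, against 39.7% of all genes. C1C3a and C3+14 did not differ past the threshold in any of the 8 genes by limma, against 14.9% of all genes. An unadjusted p under 0.05 was found for 3 of the 8 and for 7749 of the 21584 genes tested. FL differed from C3+14, with 26.3% of genes called, in Eomes (-1.56) and Gata3 (-2.63), which were lower in FL, and Tfap2c (1.02, limma adjusted p 0.0327), which was higher. Against C1C3b, FL was also lower in Gata3 (-4.40, limma adjusted p 1.26e-04), Gata2 (-3.50), Elf5 (-3.15) and Eomes (-1.70) and higher in Tead4 (1.56). Against C1C3c, with 44.0% of genes called, FL was lower in Gata3 (-3.22), Elf5 (-3.27), Cdx2 (-2.85) and Gata2 (-2.27), the last with overlapping libraries. FL was lower in Ascl2 than C1C3a (-1.48, limma adjusted p 0.0258) and C1+14 (-1.25, adjusted p 0.0261), and lower in Eomes than C1+14 (-1.30). C3+14 was lower than C1+14 in Tfap2c (-3.18), with 44.6% of genes called, and lower than C1C3c in Tfap2c (-1.50) and Cdx2 (-2.59), with 37.1% called. Both Cdx2 differences from C1C3c rest on few reads: 3 and 0 in FL and 4 and 0 in C3+14, against 10 and 47 in C1C3c, whose libraries disagree. Against C1C3b, with 30.2% called, C3+14 was lower in Gata2 (-2.98) and higher in Tead4 (1.06) and Ascl2 (1.31).

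In the deletion table FL was set beside DUX derivatives that, by their names, lack the part called 14, the part called C12345, or both. It has no mCherry libraries, and its values were normalised apart from those above, so tests stay within it. Here 6 of the 9 genes were tested among 19833, since Cdx2, Elf5 and Hand1 had too few reads: Cdx2 had at most 11, Elf5 at most 10 and Hand1 at most 5 in any library. Against deltC12345delt14, which lacks both, FL had 5 of the 6 called, all lower, where 39.1% of all genes were called (20.3% higher and 18.8% lower). The 5 were Tfap2c, Eomes, Gata2, Tead4 and Ascl2. The percent of all calls that were higher in FL went from 51.9% to 36.7% after quantile normalisation and 18.3% in RPM. Of the trophoblast genes 8 of 23 tested were lower in FL and 1 higher (median -1.23), and of the Hippo and Notch genes 7 of 19 were lower and 0 higher (-0.68), against a median of 0.11 over all genes.

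Tfap2c had 103 and 198 normalised reads in FL, 239 and 666 in C12345delt14, 1650 and 1855 in deltC12345+14 and 2374 and 2634 in deltC12345delt14. The 4 groups do not overlap in that order. In FL it was lower than in deltC12345delt14 (log2 difference -4.12, SE 0.46, limma adjusted p 3.61e-04) and than in deltC12345+14 (-3.60, adjusted p 7.23e-04, with 38.4% of genes called). C12345delt14 was lower than deltC12345delt14 (-2.65, limma adjusted p 0.00550, 22.0% called) and than deltC12345+14 (-2.13, adjusted p 0.0142, 19.8% called), so both proteins that keep C12345 had less Tfap2c than both that lack it.

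Eomes had 97.9 and 137 normalised reads in FL, 155 and 206 in C12345delt14, 271 and 240 in deltC12345+14 and 343 and 405 in deltC12345delt14, again with no overlap along that order. It was lower in FL than in deltC12345delt14 (-1.68, SE 0.27, limma adjusted p 0.0016) and than in deltC12345+14 (-1.13, adjusted p 0.00916), and lower in C12345delt14 than in deltC12345delt14 (-1.06, adjusted p 0.0217). Ascl2 had 38.1 and 116 in FL, 202 and 216 in C12345delt14, 359 and 233 in deltC12345+14 and 299 and 642 in deltC12345delt14. FL lies below every other library, at -2.70 against deltC12345delt14 (SE 0.55, limma adjusted p 0.00474) and -2.10 against deltC12345+14 (adjusted p 0.0141).

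Tead4 had 458 and 490 normalised reads in FL, 538 and 822 in C12345delt14, 945 and 804 in deltC12345+14 and 925 and 1004 in deltC12345delt14. Its difference between FL and deltC12345delt14 of -1.02 (SE 0.22, limma adjusted p 0.00571) sits on the 2-fold line, and it was -0.97 without FL replicate 1 and -0.96 without deltC12345delt14 replicate 2. Gata2 had 39.9 and 5.96 in FL, 13.7 and 18.9 in C12345delt14, 43.5 and 53.2 in deltC12345+14 and 66.5 and 89.5 in deltC12345delt14. Its call in FL against deltC12345delt14 (-2.21, limma adjusted p 0.0409) ended in 8 of the 13 alternatives, among them the replicate block (adjusted p 0.0561), the edgeR fit (0.0511) and leaving out FL replicate 2 (-0.94, adjusted p 0.132) or deltC12345delt14 replicate 1 or 2 (0.0906 and 0.138). Gata3 had 3.62 and 13.4 in FL, 17.1 and 6.56 in C12345delt14, 21.04 and 42.4 in deltC12345+14 and 40.2 and 19.1 in deltC12345delt14, and was not called in any of the 6 pairs. Its difference in FL against deltC12345delt14 (-1.82, limma adjusted p 0.0786) was called after quantile normalisation (-2.79, adjusted p 0.0290), in RPM (-2.84, 0.0128) and without FL replicate 2 (-2.64, 0.0411). Within each of the last 2 constructs Gata3 was higher in the library with the smaller share of pseudogene reads (4.53% and 4.68%), and the part of that library difference in Gata3 was not tested.

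**Figure D5:**
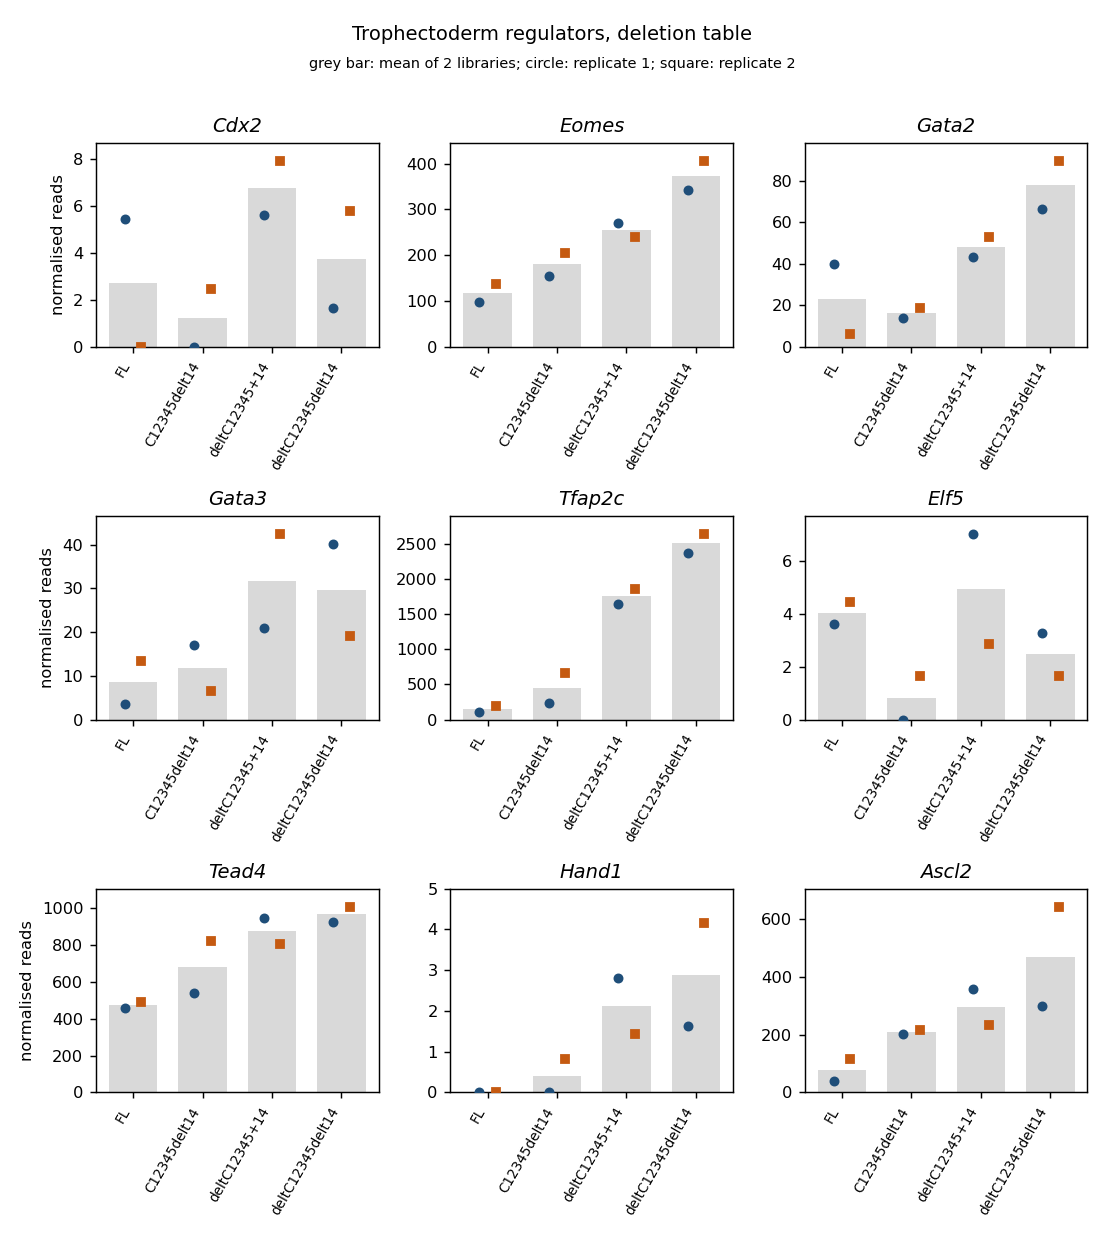
Normalised reads of each gene (vertical axis, linear, its own scale per panel) in the 4 groups of the deletion table (horizontal axis), with circles and squares for replicates 1 and 2 and grey bars for their mean. Tfap2c and Eomes step up from FL to deltC12345delt14 without overlap, and Cdx2, Elf5 and Hand1 stay below 8 normalised reads.

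The part called 14 was removed with and without C12345. With C12345 present (C12345delt14 against FL), limma called 0 of the 6 genes and 0.958% of all genes (0.338% higher and 0.62% lower). At an unadjusted p under 0.05 there were 4935 of all 19833 genes tested and 3 of the 6, Eomes (0.62), Tfap2c (1.47) and Ascl2 (1.63), which lie above FL in both libraries. DESeq2 called 2, Tfap2c at 1.58 (adjusted p 0.00205) and Ascl2 at 1.42 (adjusted p 0.0346), and edgeR called 0. Amotl2 was the 1 Hippo gene called (2.07, limma adjusted p 0.0307), and 0 of the 23 trophoblast genes were. The percent of all calls that were higher went from 35.3% to 47.2% after quantile normalisation. Without it (deltC12345+14 against deltC12345delt14), limma called 0 of the 6 genes and 0% of all genes. There 0 of the 6 genes and 543 of all genes had an unadjusted p under 0.05, and edgeR and DESeq2 also called 0 of the 6. The log2 differences ran from -0.67 (Gata2, SE 0.77) to 0.10 (Gata3, SE 0.77), SEs against which a 2-fold effect on Gata2 or Gata3 would not stand out. An interaction term, added after the data were seen, tested whether losing 14 acts differently with and without C12345. By limma 0 of the 6 genes and 0 of 19833 genes passed, with adjusted p of the 6 between 0.522 and 0.942, and 0 of the 6 and 2748 of all had an unadjusted p under 0.05.

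The 2 tables were set side by side as RPM, a scale on which the same FL libraries hold the same values in both. Other scalings of all libraries together were not run, and no test was made across the tables. Tead4 had 40.6 and 39.6 RPM in mCherry, 41.1 and 36.6 in deltC12345+14, and 41.2 and 42.0 in deltC12345delt14, against 7.86 and 10.5 in FL. Tfap2c had 73.5 and 78.0 in mCherry, 71.7 and 84.5 in deltC12345+14, and 106 and 110 in deltC12345delt14. For these 2 genes deltC12345+14 overlaps with mCherry and deltC12345delt14 lies above it. Cdx2 had 1.44 and 1.67 RPM in mCherry but between 0.0732 and 0.360 in the 4 libraries of the proteins without C12345. Gata2 had 15.2 and 15.7 in mCherry and between 1.89 and 3.74 in those libraries, and Gata3 3.27 and 3.63 against 0.797 to 1.93. For these 3 genes mCherry lies above all 4 of them. Eomes and Ascl2 went the other way, with mCherry below all 4. Eomes had 6.63 and 6.35 RPM in mCherry, 11.8 and 10.9 in deltC12345+14, and 15.3 and 17.0 in deltC12345delt14. Ascl2 had 4.45 and 5.22 in mCherry, 15.6 and 10.6 in deltC12345+14, and 13.3 and 26.9 in deltC12345delt14.

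Genes whose pattern over the 14 libraries of the chimera table was most like each regulator were found by Pearson's r on log2 values among 15871 or 15872 genes, as a description with no test. These libraries share groups and depth. Tfap2c and Tead4 had the closest company: Gramd1a (0.984) and H2-M6-ps (0.981) for Tfap2c, and Rarg (0.977) and Cd3eap (0.971) for Tead4. The nearest were Zmpste24 (0.952) and Mrpl9 (0.919) for Gata2, Shc1 (0.943) and Emc9 (0.913) for Ascl2, and Hook1 (0.928) and Zfyve16 (0.915) for Elf5. For Cdx2 they were Serpinb9b (0.907) and Dph5 (0.895), for Gata3 Eaf1 (0.899) and Hoxb9 (0.892), and for Eomes Spin4 (0.896) and Dusp10 (0.892). Among the regulators themselves r was highest for Tfap2c with Tead4 (0.841) and lowest for Elf5 with Tead4 (-0.692).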

How the data were processed

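RNA of 20 libraries was sequenced from poly(A) RNA with a stranded kit, per the labels' protocols. The submitters' processing notes name Trim Galore 0.5.0, FastQC, DESeq2 and the mm10 build. The aligner, the counting and its use of strand are not given in the sources used here. The deposited values are a normalised signal: whole read counts times 1 factor per library (100% of 1220714 values were whole within 0.05 of a read), each table scaled apart. Being normalised, they were tested with limma 3.58.1 (R 4.3.3) on log2(value + 1), so fold changes of low genes are understated. Genes needed 10 normalised reads in at least 2 libraries, all groups of a table shared 1 spread, and p-values were adjusted by Benjamini-Hochberg over all genes tested. Calls needed an adjusted p under 0.05 and a 2-fold difference. An exact permutation test of 2 against 2 cannot go below 0.333.

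The 9 genes and the lists were chosen with earlier results of these data known. From the lists, up to 3 called genes per direction and comparison with a mean of at least 50 were named. Yap1, outside this rule, was named after its values were seen. Alternatives were pseudocounts of 0.1 and 8, no filter, quantile normalisation, RPM (reads scaled to the total), edgeR 4.0.16 and DESeq2 1.42.0 on the recovered reads, a replicate block, only the groups compared, and each library left out. A crossed block and the interaction term were added after seeing the data.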

Additional observations from a re-analysis of the deposited data

How the results depend on the processing

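The alternatives were run on the 12 planned comparisons and not on the other pairs of groups. Of 90 differences in the planned ones, 40 of them called, 26 called ones stayed called in the same direction under each alternative, and no called one changed sign. Over 1176 alternative values, 48 lost the call, 31 gained it and 33, none of them called, changed sign. The count of called genes in C1C3a against C1+14 (1) was 2 after quantile normalisation and 4 in RPM, that in C1C3c against C1+14 (1) was 2 with DESeq2 and 0 with only the groups compared, and that in C12345delt14 against FL (0) was 2 with DESeq2. Leaving out 1 library gave 2 to 5 for C1+14 against mCherry (5 without C1+14 replicate 2), 0 to 2 for C1C3c against C1+14 (2 without C1C3c replicate 1), 0 to 1 for C12345delt14 against FL (1 without FL replicate 2) and 3 to 5 for FL against deltC12345delt14 (3 without deltC12345delt14 replicate 2). The cause was not tested. The replicate block took the count for FL against deltC12345delt14 from 5 to 4 and changed no other count. Same-numbered libraries share only a number: their deviations correlated between -0.0559 and 0.135, and at -0.574 in deltC12345+14 against deltC12345delt14, where crossed numbers also gave 0 calls. Over all genes, the 190 calls in C12345delt14 against FL became 30 and 1172 with pseudocounts of 0.1 and 8, 434 after quantile normalisation, 0 in RPM, 467 with edgeR, 1293 with DESeq2 and 45 with the replicate block. Depth limits Cdx2, Elf5 and Hand1 most.

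Log2 differences that changed sign were not called. Against mCherry, quantile normalisation gave -0.086 for Elf5 in FL and -0.14 for Ascl2 in C1C3c, and RPM gave -0.57 for Eomes and -0.30 for Ascl2 in C1C3a. Gata3 in C1C3c was 0.0047 in RPM, 0.075 with edgeR and 0.027 with DESeq2. With a library left out it ran from -0.98 to 0.61, Ascl2 in C1C3c from -0.23 to 0.25 and Ascl2 in C1+14 from -0.072 to 0.83. For C1C3a against C1+14, Gata2, Gata3 and Ascl2 were -0.058, -0.020 and -6.3e-04 after quantile normalisation and -0.63, -0.55 and -0.90 in RPM, and Ascl2 was -0.053 with edgeR. Leaving out a library there gave -0.33 to 1.38 for Gata3, -0.22 to 0.68 for Ascl2 and -1.91 to 0.028 for Elf5. For C1C3c against C1+14 it gave -0.13 to 1.81 for Cdx2 and -0.81 to 0.084 for Ascl2. For C12345delt14 against FL, Gata2 was -0.098 with a pseudocount of 8, -0.35 with edgeR and -0.47 with DESeq2, and without a library -1.26 to 1.30, with Gata3 at -0.30 to 1.34. For deltC12345+14 against deltC12345delt14, Gata3 was -0.41 to 0.62 without a library.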
